A study of Mus musculus with 31 samples.

Results

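The genes described here are 34 genes that act in G2 and mitosis, the phases in which a cell that has copied its DNA condenses its chromosomes, attaches them to a spindle and divides. They were chosen by name from the deposited gene tables. All 34 were present in all 21 RNA libraries, out of 24062 gene names in the sorted-cell tables and 24322 in the culture tables. Each of them also passed the filter on low values (a mean of at least 1) in every comparison.

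Of the libraries, 15 came from cells positive for green fluorescent protein, sorted from the hippocampal dentate gyrus of C57BL/6 Nestin-EGFP mice. In these mice Nestin sequences drive the fluorescent protein in neural stem cells, and the protein lasts into their early progeny. The sort is therefore expected to hold stem cells together with younger neuronal and glial cells, and markers of vascular cells were also present (below). MDZ P10 mice had received midazolam (MDZ), a benzodiazepine sedative, at 10 mg/kg into the peritoneum on postnatal days 7, 8 and 9, and were taken on day 10. Control P10 mice had received water on the same days. RUN MDZ 8w mice had the same midazolam injections and a running wheel, MDZ 8w mice had midazolam and no wheel, and Control 8w mice had water. All of these were 8 weeks old. One mouse gave each P10 library (50000 cells) and 3 to 5 pooled mice gave each 8-week library (about 30000 cells). The other 6 libraries came from neural stem cells of ICR mouse cortex at embryonic day 11, passaged more than 20 times and grown with bFGF and EGF. Egr1 culture had been infected with a lentivirus for Flag-tagged Egr1 and one for the M2rtTA transactivator. Control culture carried the M2rtTA virus alone. Each of the 7 groups had 3 libraries. Running mice without midazolam were not analysed here, and no label says that the cultured libraries were separate cultures, so the culture p-values measure a spread that may be technical.

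Entry into mitosis is driven by the kinase Cdk1 with its cyclins and is helped by the Aurora A and Polo-like kinases. Kinetochores then hold chromosomes to the spindle, a checkpoint holds back the anaphase promoting complex until all are attached, and the chromosomal passenger complex corrects attachments and guides cytokinesis. Transcripts of these genes build up in G2 and fall after division, and in a mixed sample their level is often read as a sign of dividing cells. In the dentate gyrus dividing cells are mainly intermediate progenitors and early neuroblasts, while most stem cells with radial glia-like form rest outside the cycle. In a bulk sample, fewer dividing cells and less of each transcript per cell cannot be told apart.

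Levels are in FPKM at P10 and in TPM at 8 weeks and in culture, and were never compared between those 3 tables. Depth was known only in relative terms and only at P10, where the shallowest library had 0.571 of the depth of the deepest. The 7 stem cell markers (Nes, Sox2, Hopx, Fabp7, Gfap, Vim and Slc1a3) were above 0 in every group. Their summed level was 1898 to 2004 FPKM in MDZ P10 mice and 1891 to 2482 FPKM in Control P10. At 8 weeks it was 2997 to 3428 TPM in RUN MDZ 8w, 3184 to 4813 TPM in MDZ 8w and 1969 to 2356 TPM in Control 8w. The 5 pericyte and smooth muscle markers summed to 2114 to 2971, 587.3 to 1277 and 2333 to 3434 TPM in these groups. The 5 endothelial markers summed to 579.8 to 729.7, 197.1 to 230.4 and 255.7 to 313.8 TPM. Egr1 had 1769, 1390 and 1291 TPM in Egr1 culture, against 361, 285 and 344 TPM in Control culture, which fits the labels. Control 8w stood apart from the other groups. Its libraries held 11163 to 11397 genes above 0, against 15568 to 15906 in RUN MDZ 8w and 15382 to 16709 in MDZ 8w. Of the genes detected in Control 8w replicate 2 or 3, 97.4% were detected in both, and 8 genes were above 5 TPM in one of them and listed at 0 in the other. The corresponding values against replicate 1 were 78.4% and 77.8% of genes, and 2141 and 2261 genes. Replicates 2 and 3 were therefore averaged and counted as 1 sample, which leaves 2 samples in Control 8w for every test at 8 weeks. The mice also differed in sex, which no label gives. Control P10 replicate 1 had 158.9 FPKM of Xist, against at most 0.185 FPKM in the other P10 libraries, and RUN MDZ 8w replicates 1 and 3 were listed at 0 for the Y-linked Ddx3y while every other 8-week library had 29.1 to 72.3 TPM. Xist was above 0 in every 8-week library, from 24.5 TPM in MDZ 8w replicate 1 to 663.1 TPM in RUN MDZ 8w replicate 1.

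**Figure D1:**
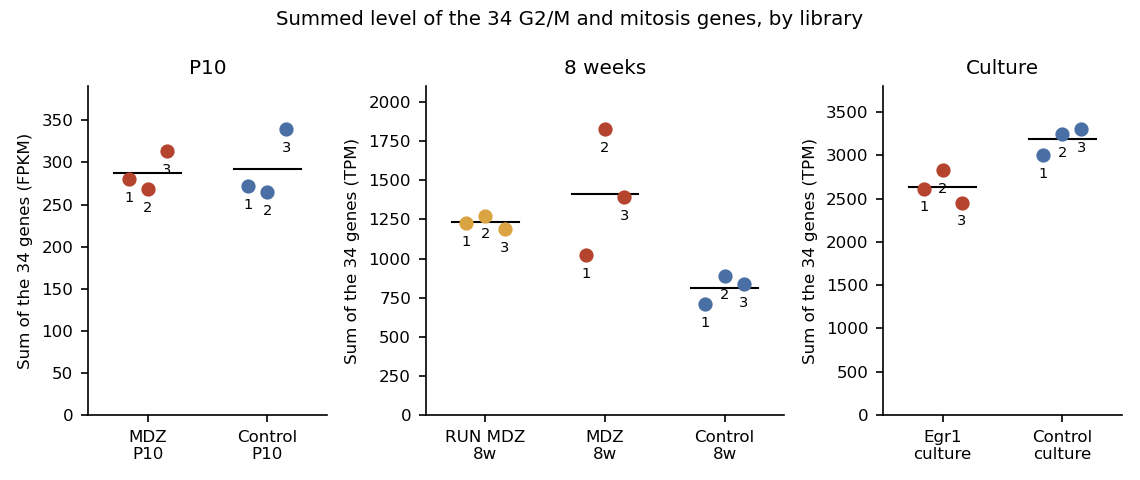
Summed level of the 34 genes in each library, in FPKM at P10 and in TPM at 8 weeks and in culture. Points are libraries with their replicate number below them and lines are group means (n = 3 each). The P10 groups overlap (268.7 to 313.9 against 264.8 to 339.8 FPKM), every MDZ 8w and RUN MDZ 8w library lies above every Control 8w library, and every Egr1 culture library lies below every Control culture library.

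Promoter sequence was looked at because many of these genes are known to share 2 short elements. The CCAAT box is bound by the factor NF-Y, and the cell cycle genes homology region (CHR) is bound by the MuvB complexes that repress late cell cycle genes in resting cells and, with B-Myb and FoxM1, activate them in G2. Windows from RefSeq (GRCm38.p6), from 250 bases before to 50 bases after the annotated start, matched 29 of the 34 genes by symbol. Ccna2, Smc4, Kif20a, Tpx2 and Aurkb were the others. The letters searched on both strands were CCAAT for the box, and TTTGAA and TTTAAA for the CHR. A match of one can share end letters with a match of the other, which happens in none of the printed sequences. A CHR match lay in 25 of the 29 promoters (86.2%), against 28.2% of 17491 protein-coding genes with such a window. A CCAAT match lay in 22 (75.9%, against 42.3%), and both lay in 21 (72.4%, against 12.7%). Among 28 S phase genes with a window, 28.6% had a CHR match and 64.3% a CCAAT match. Among 70 other mitosis genes the shares were 54.3% and 68.6%.

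Shown are the 110 bases before the start of 4 genes that fell in Egr1 culture, chosen to show both elements side by side, and of Nusap1, which had neither match anywhere in its window. They are read 5′ to 3′ on the gene's own strand, with the matched letters in capitals. Cdk1 (chr10:69352913-69353022), Ccnb1 (chr13:100786487-100786596) and Top2a (chr11:99024190-99024299) are on the minus strand, and Ube2c (chr2:164769819-164769928) and Nusap1 (chr2:119618188-119618297) on the plus strand. ATTGG is CCAAT read on the other strand, and TTCAAA is TTTGAA read on the other strand.
Cdk1: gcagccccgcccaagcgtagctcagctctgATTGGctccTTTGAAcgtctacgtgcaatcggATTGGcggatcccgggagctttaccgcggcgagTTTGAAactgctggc
Ccnb1: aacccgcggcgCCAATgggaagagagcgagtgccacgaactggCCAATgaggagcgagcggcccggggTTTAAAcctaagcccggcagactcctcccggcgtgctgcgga
Top2a: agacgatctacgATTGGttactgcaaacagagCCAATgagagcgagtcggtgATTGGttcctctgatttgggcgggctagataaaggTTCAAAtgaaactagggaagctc
Ube2c: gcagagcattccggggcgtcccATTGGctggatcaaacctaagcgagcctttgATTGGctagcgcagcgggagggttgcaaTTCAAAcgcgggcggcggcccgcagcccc
Nusap1: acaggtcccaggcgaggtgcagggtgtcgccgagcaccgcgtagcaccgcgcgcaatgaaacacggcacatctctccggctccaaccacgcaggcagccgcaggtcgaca
In the 110 printed bases of Cdk1, Ccnb1, Top2a and Ube2c, 2 or 3 CCAAT matches stand upstream of a CHR match nearer the start, and Cdk1 has a further CHR match between its CCAAT matches. Further matches lie in the unprinted bases of Cdk1, Top2a and Ube2c. Across all 30 windows (Ect2 has an extra one) CHR matches were most frequent just after the start. They fell within the first 25 bases after it in 13 windows (43.3%, against 1.5% of 21262 windows of protein-coding genes) and in the next 25 bases in 8 (26.7%, against 1.03%). CCAAT matches were most frequent from 75 to 50 bases before the start, in 12 windows (40.0%, against 8.12%). These are matches of letters, and binding was not examined. Whether the matches go with the changes of the genes in culture was not tested either.

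**Figure D2:**
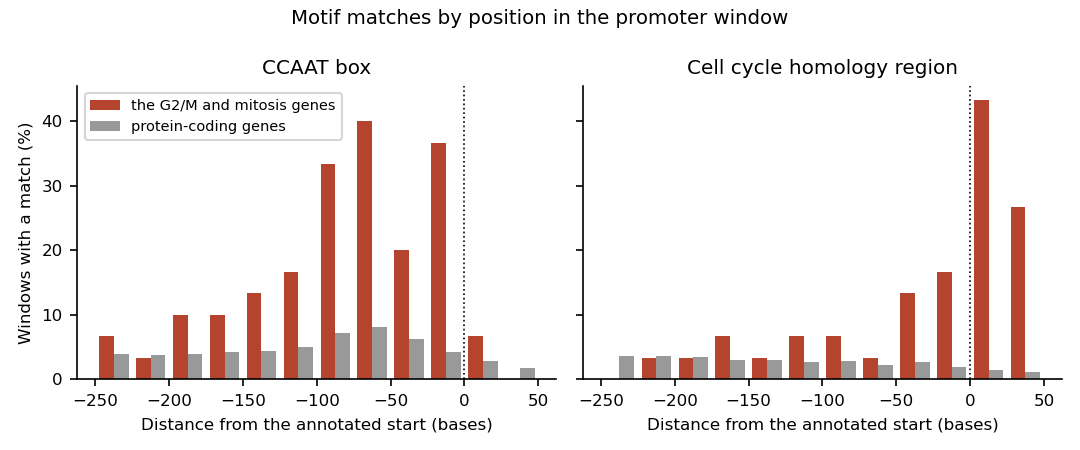
Share of promoter windows (percent) with a CCAAT box match (left) or a CHR match (right) in bins of 25 bases, by distance from the annotated start, for the G2/M and mitosis genes (30 windows) and protein-coding genes (21262 windows). CCAAT matches of the G2/M and mitosis genes lie mostly before the start, with 40.0% of windows in the bin from 75 to 50 bases before it. CHR matches lie on both sides of the start and are most frequent in the first bin after it (43.3% of windows).

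The first comparison asked whether midazolam changed the mitosis genes of sorted cells 1 day after the last injection. It did not do so at a detectable level. None of the 34 passed in MDZ P10 against Control P10 in either direction, in a comparison in which 1 gene of 12914 passed at all (0.00774%). None had groups that did not overlap, whereas 12.2% of all genes tested lay wholly higher and 6.61% wholly lower in MDZ P10. None reached an unadjusted limma p below 0.05, against 8.54% of genes higher and 3.65% lower. Changes ran from -0.20 to 0.15 on the log2 scale, with a median of -0.028 beside 0.015 for all genes tested, and 12 of the 34 were above 0, against 55.9% of all genes. All 95% intervals lay between -0.50 and 0.39. The summed level was 280.1, 268.7 and 313.9 FPKM in MDZ P10, against 271.8, 264.8 and 339.8 FPKM in Control P10, so both groups covered the same range.

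Mki67, whose product coats mitotic chromosomes and serves as the usual proliferation marker, had 9.98, 10.7 and 13.4 FPKM in MDZ P10, against 12, 11.4 and 14.4 FPKM in Control P10 (log2 change -0.14 ± 0.12 SE, limma adjusted p = 0.653). Top2a, the topoisomerase that untangles sister chromatids, was the most abundant of the 34 at 19.0 ± 2.05 FPKM in MDZ P10 mice and 19.3 ± 2.54 FPKM in Control P10 (SD, n = 3 each). Its 3 libraries had 17.2, 18.5 and 21.2 FPKM in MDZ P10 mice and 18.3, 17.4 and 22.2 FPKM in Control P10 (log2 change -0.021, adjusted p = 0.954). For both genes the groups overlapped, and Control P10 replicate 3 was the highest library.

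Among the entry kinases and cyclins, Cdk1 had 7.65, 6.98 and 8.14 FPKM in MDZ P10, against 6.95, 6.34 and 7.96 FPKM in Control P10 (log2 change 0.09, adjusted p = 0.701). Ccnb1, its cyclin B1 partner, had 5.98, 6.57 and 7.49 FPKM in MDZ P10, against 6.84, 6.57 and 8.05 FPKM in Control P10 (log2 change -0.09, adjusted p = 0.743). Plk1, the Polo-like kinase, had 6.76, 6.36 and 8.00 FPKM in MDZ P10, against 6.15, 6.20 and 7.70 FPKM in Control P10 (log2 change 0.07, adjusted p = 0.831). In each of the 3 the spread within a group exceeded the difference between groups. Aurka, the Aurora A kinase of centrosomes, averaged 6.43 ± 0.684 FPKM in MDZ P10 mice and 6.43 ± 1.06 FPKM in Control P10, from 6.90, 5.64 and 6.74 FPKM in MDZ P10 mice and 6.39, 5.39 and 7.51 FPKM in Control P10 (adjusted p = 0.990).

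The extremes of the list were small. Aurkb, the Aurora kinase of the chromosomal passenger complex, had the highest change, with 9.61, 9.29 and 10.9 FPKM in MDZ P10, against 7.85, 8.73 and 10.1 FPKM in Control P10 (log2 change 0.15 ± 0.09, adjusted p = 0.545). Cenpe, a kinesin that carries chromosomes to the spindle equator, had the lowest, with 2.24, 2.15 and 3.12 FPKM in MDZ P10, against 3.10, 2.52 and 3.45 FPKM in Control P10 (log2 change -0.20 ± 0.13, adjusted p = 0.553). Both sets of libraries overlapped. Cdc20, the activator of the anaphase promoting complex, had 12.6, 10.2 and 13.2 FPKM in MDZ P10, against 10.0, 10.2 and 13.3 FPKM in Control P10 (log2 change 0.10, adjusted p = 0.781). Kif11, the motor that pushes spindle poles apart, had 9.30, 8.87 and 10.7 FPKM in MDZ P10, against 9.39, 9.12 and 12.1 FPKM in Control P10 (log2 change -0.07, adjusted p = 0.829). By role, medians ran from -0.12 for the 5 kinetochore genes to 0.05 for the 3 genes of protein destruction in mitosis (Cdc20, Ube2c and Cdca3).

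Control P10 replicate 3 held the highest value of 29 of the 34 genes, and no gene was highest in MDZ P10 replicates 1 or 2. Without that library the median change was 0.06 and 28 genes were above 0, and without MDZ P10 replicate 2 it was 0.011 with 18 above 0, so the sign of the median depended on single libraries. No gene of the 34 passed in either fit. The 83 other mitosis genes gave 82 tested genes with a median of 0.026, and none passed. Of 34 S phase genes, which serve DNA replication, 33 were tested, none passed, and 31 were above 0 with a median of 0.16.

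**Figure D3:**
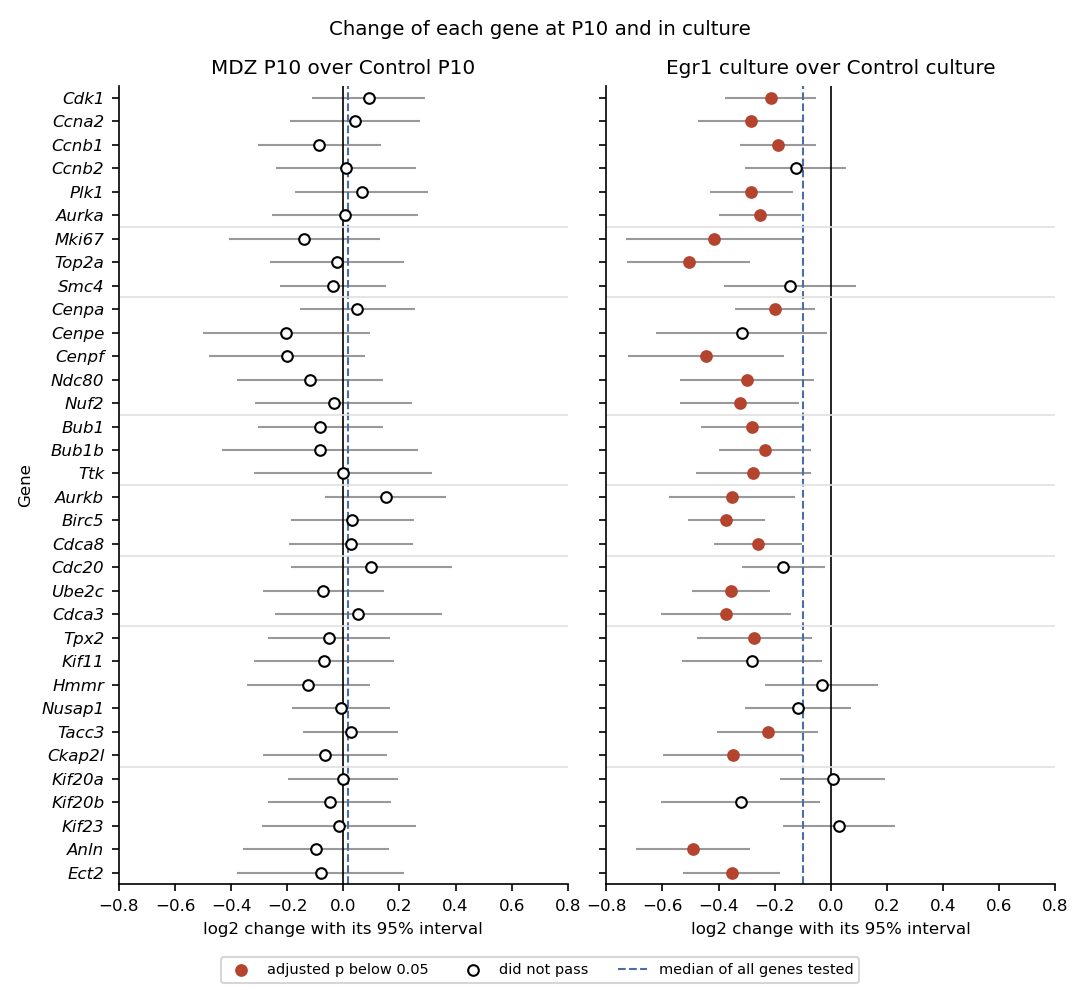
Log2 change of each of the 34 genes with its 95% interval from limma, in MDZ P10 over Control P10 (left) and Egr1 culture over Control culture (right), with genes ordered by role and the median of all genes tested as a broken line (0.015 and -0.098). Filled points passed at an adjusted p below 0.05: none of the 34 at P10 and 24 in culture, all of them below 0.

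At 8 weeks the comparison of MDZ 8w with Control 8w asked whether the genes differed long after the exposure. Aurka and Nusap1 passed as higher in MDZ 8w and none of the 34 passed as lower. This is 5.88% of the list, against 4.68% of all 15264 genes tested that passed as higher (0.452% as lower), so the share of calls was near the background. The 10 genes whose MDZ 8w libraries all lay above the Control 8w libraries were 29.4% of the list, against 26.2% of all genes, and Nuf2 lay wholly below (10.1% of all genes). The sizes differed more. The median change was 1.55 on the log2 scale, beside 0.36 for all genes tested. Of the 34, 33 were above 0, against 66.1% of all genes. This direction depended on the fit. Without Control 8w replicate 1, which leaves 1 control sample, 24 of the 34 were above 0. Their median was then 0.55, beside 0.24 for all genes. With quantile normalization 27 were above 0. Summed over the 34, the level was 1020, 1829 and 1391 TPM in MDZ 8w mice, against 710.0, 885.6 and 839.7 TPM in Control 8w. MDZ 8w replicate 2 held the highest value of 19 of the 34 genes among all 9 libraries.

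Many of these changes came with values of 0 in Control 8w. Of the 34, 12 were listed at 0 in at least 1 Control 8w library, against 36% of all genes tested, and none was at 0 in an MDZ 8w or RUN MDZ 8w library. The zeros fell in different libraries. Cdk1, Ccnb1, Aurka, Bub1, Bub1b, Ttk, Birc5 and Anln were at 0 in replicate 1 alone, and Ccnb2, Ndc80 and Nusap1 were above 0 in replicate 1 and at 0 in replicates 2 and 3. Cenpa, the histone variant of centromeres, had 76.0 TPM in replicate 1, 0.692 TPM in replicate 2 and 0 in replicate 3. Such zeros were not limited to mitosis genes. Of 7534 genes with at least 20 TPM in all 6 MDZ 8w and RUN MDZ 8w libraries, 462 were at 0 in at least 1 Control 8w library and 31 in all 3. Whether an exact 0 in these tables is a true absence or a failed estimate was not tested, and it is given here as listed. The 12 genes with a 0 had a median change of 2.65. The 22 genes above 0 in all 9 libraries had a median of 0.70, with 21 of 22 above 0, beside 0.07 for the 9774 genes tested that were above 0 in every Control 8w library. These 22 are not free of values near 0. The lowest Control 8w values were 0.0265 TPM for Kif20b, 0.0306 TPM for Kif11 and 0.159 TPM for Ube2c, with changes of 1.46, 2.89 and 3.18.

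**Figure D4:**
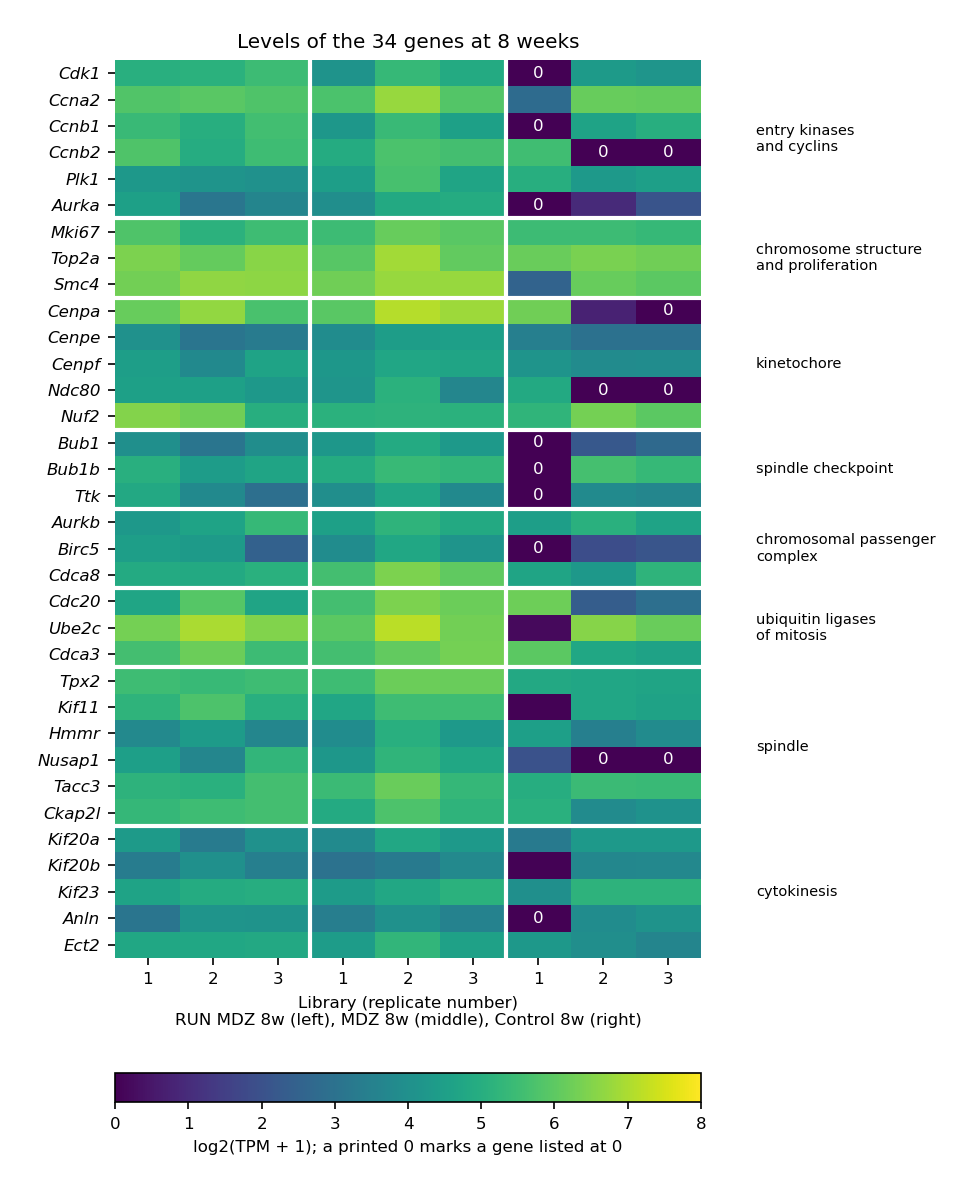
Level of each of the 34 genes in each 8-week library as log2(TPM + 1), with genes ordered by role and libraries by group. A printed 0 marks a value listed at 0: there are 8 in Control 8w replicate 1, 3 in replicate 2 and 4 in replicate 3, and none in the 6 MDZ libraries.

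The 2 genes that passed were low in every Control 8w library. Aurka had 14.3, 28.2 and 29.1 TPM in MDZ 8w mice, against 0, 0.936 and 3.22 TPM in Control 8w. All MDZ 8w libraries lay above all Control 8w libraries, and the change was 3.76 ± 0.72 on the log2(TPM + 1) scale (limma adjusted p = 0.0249). Nusap1, which bundles the microtubules of the spindle, had 17.9, 36.5 and 26.3 TPM in MDZ 8w mice, against 3.04, 0 and 0 TPM in Control 8w. These groups did not overlap either (log2 change 3.74 ± 0.76, adjusted p = 0.0320). Neither call held without any 1 of the 3 MDZ 8w libraries, with quantile normalization or with library quality weights, where 0 of the 34 passed. Adjusted p over the alternatives ran from 9.2e-04 to 0.470 for Aurka and from 0.0018 to 0.426 for Nusap1.

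Most genes of mitotic entry had wide intervals. Cdk1 had 16.2, 40.1 and 28.8 TPM in MDZ 8w mice, against 0, 19.7 and 17.1 TPM in Control 8w (log2 change 2.65 ± 1.09, adjusted p = 0.202). Ccnb1 had 17.8, 41.5 and 22.4 TPM in MDZ 8w mice, against 0, 24.0 and 31.6 TPM in Control 8w (log2 change 2.31 ± 1.21, adjusted p = 0.298). Without Control 8w replicate 1, where both are listed at 0, the change of Ccnb1 was -0.12 (adjusted p = 0.903). Plk1, which had no 0, had 21.3, 50 and 24.6 TPM in MDZ 8w mice, against 31.2, 18.5 and 22.1 TPM in Control 8w (log2 change 0.23 ± 0.46, adjusted p = 0.803). The groups overlapped for all 3.

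The usual proliferation markers were close between the groups. Mki67 had 43.4, 69.9 and 60.8 TPM in MDZ 8w mice, against 43.8, 43.8 and 40.1 TPM in Control 8w (log2 change 0.40 ± 0.31, adjusted p = 0.473). Top2a had 59.7, 116 and 66.0 TPM in MDZ 8w mice, against 71.9, 83.3 and 75.9 TPM in Control 8w (log2 change 0.028 ± 0.32, adjusted p = 0.988). Their 95% intervals, -0.32 to 1.13 and -0.72 to 0.77, include 0 and reach well above it. Smc4, a core subunit of condensin, had 4.81 TPM in Control 8w replicate 1 and 62.4 to 69.1 TPM in replicates 2 and 3, against 75.7 to 108 TPM in MDZ 8w (log2 change 2.30 ± 0.85, adjusted p = 0.165).

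Kinetochore and checkpoint genes came next. Bub1, a kinase of the spindle checkpoint, had 17.7, 28.8 and 18.5 TPM in MDZ 8w mice, against 0, 3.62 and 5.72 TPM in Control 8w (log2 change 3.22 ± 0.78, adjusted p = 0.0570). Nuf2, a subunit of the Ndc80 complex that grips microtubules, had the lowest change of the list, with 33.3, 35.2 and 33.7 TPM in MDZ 8w mice, against 36.5, 80.0 and 62.4 TPM in Control 8w (log2 change -0.57 ± 0.49, adjusted p = 0.514). Its partner Ndc80 had 17.0, 33.7 and 11.9 TPM in MDZ 8w mice, against 28.1, 0 and 0 TPM in Control 8w. So the 2 members of one complex pointed in different directions in Control 8w replicates 2 and 3.

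In the passenger complex, Cdca8, which encodes Borealin, had 47.6, 85.0 and 65.5 TPM in MDZ 8w mice, against 24.5, 18.2 and 35.7 TPM in Control 8w. It had no 0 and its groups did not overlap (log2 change 1.29 ± 0.32, adjusted p = 0.0603). Birc5, which encodes Survivin, had 13.8, 26 and 16.5 TPM in MDZ 8w mice, against 0, 2.71 and 3.28 TPM in Control 8w (log2 change 3.26 ± 0.85, adjusted p = 0.0705). Aurkb, the kinase of the same complex, had 22.5, 36.1 and 28.0 TPM in MDZ 8w mice, against 21.6, 33.1 and 24.0 TPM in Control 8w (log2 change 0.19 ± 0.43, adjusted p = 0.837). So 2 of its 3 genes lay wholly above Control 8w and the third overlapped it.

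Among spindle and exit genes, Tpx2, which activates Aurora A on the spindle, had 44.4, 72.6 and 71.3 TPM in MDZ 8w mice, against 27.4, 25.4 and 24.2 TPM in Control 8w. Its groups did not overlap and it had no 0 (log2 change 1.20 ± 0.30, adjusted p = 0.0625). Kif11 had 25.6, 44.3 and 44.6 TPM in MDZ 8w mice, against 0.0306, 25.7 and 23.7 TPM in Control 8w (log2 change 2.89 ± 1.14, adjusted p = 0.187). Cdc20 had 48.2, 85.6 and 72.3 TPM in MDZ 8w mice, against 74.0, 4.15 and 6.61 TPM in Control 8w (log2 change 1.63 ± 0.93, adjusted p = 0.336). For Cdc20 the high control library was replicate 1, where Kif11 was near 0.

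The count of genes called depended on which controls stood in. Without Control 8w replicate 1, 11 of the 34 passed as higher (15.1% of all genes) with a median change of 0.55. Without replicates 2 and 3 together, 16 passed as higher (23.8% of all genes) with a median of 0.93. Both fits leave 1 control sample, which is assumed to vary like the other groups. With replicates 2 and 3 kept apart as 2 samples, 6 passed (9.72% of all genes).

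Other genes of the division cycle were counted in the same fit. Of the 83 other mitosis genes, 11 passed as higher and none as lower (13.3% of the list, against 4.68% of all genes as higher). Of these 11, 8 were at 0 in every Control 8w library. The rest, Cdc25c, Cenpq and Sgol1, had at most 0.953, 0.102 and 0.0409 TPM there. All 11 passed the filter on low values through the other groups alone, so the count is a description. The median change was 0.96, or 0.80 over the 75 that were above 0 in some Control 8w library. Bora, the partner through which Aurora A activates Plk1, had 18.1 to 28.4 TPM in MDZ 8w and was listed at 0 in all 3 Control 8w libraries. Gtse1, a microtubule protein of G2, had 12.9 to 25.7 TPM in MDZ 8w and was also at 0 in all Control 8w libraries. Cenpq, a kinetochore subunit, had 14.6 to 37.6 TPM in MDZ 8w mice, against 0 to 0.102 TPM in Control 8w. Of the 34 S phase genes, Tk1, Mcm6 and Mcm10 passed as higher and none as lower, with a median of 0.67, or 0.66 without Tk1, which was at 0 in every Control 8w library. Mcm6, a subunit of the replicative helicase, had 139.7 to 203.8 TPM in MDZ 8w mice, against 61.6 to 84.5 TPM in Control 8w (log2 change 1.19 ± 0.25, adjusted p = 0.0353).

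Markers of other cell types moved beside these genes. Of the 7 stem cell markers 3 passed as higher in MDZ 8w. Of 6 neuroblast markers 2 passed as lower, and the list summed to 2278 to 3341 TPM in MDZ 8w mice, against 3991 to 4010 TPM in Control 8w. Of 5 pericyte and smooth muscle markers 1 passed as lower (587.3 to 1277 TPM in MDZ 8w mice, against 2333 to 3434 TPM in Control 8w), as did 1 of 5 endothelial markers (197.1 to 230.4 TPM against 255.7 to 313.8 TPM). The 3 intermediate progenitor markers summed to 499.4 to 585.0 TPM in MDZ 8w, against 518.6 to 932.6 TPM in Control 8w, and none passed. No neuroblast, pericyte or endothelial marker was at 0 in a whole group. Their part in the result was not tested.

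**Figure D5:**
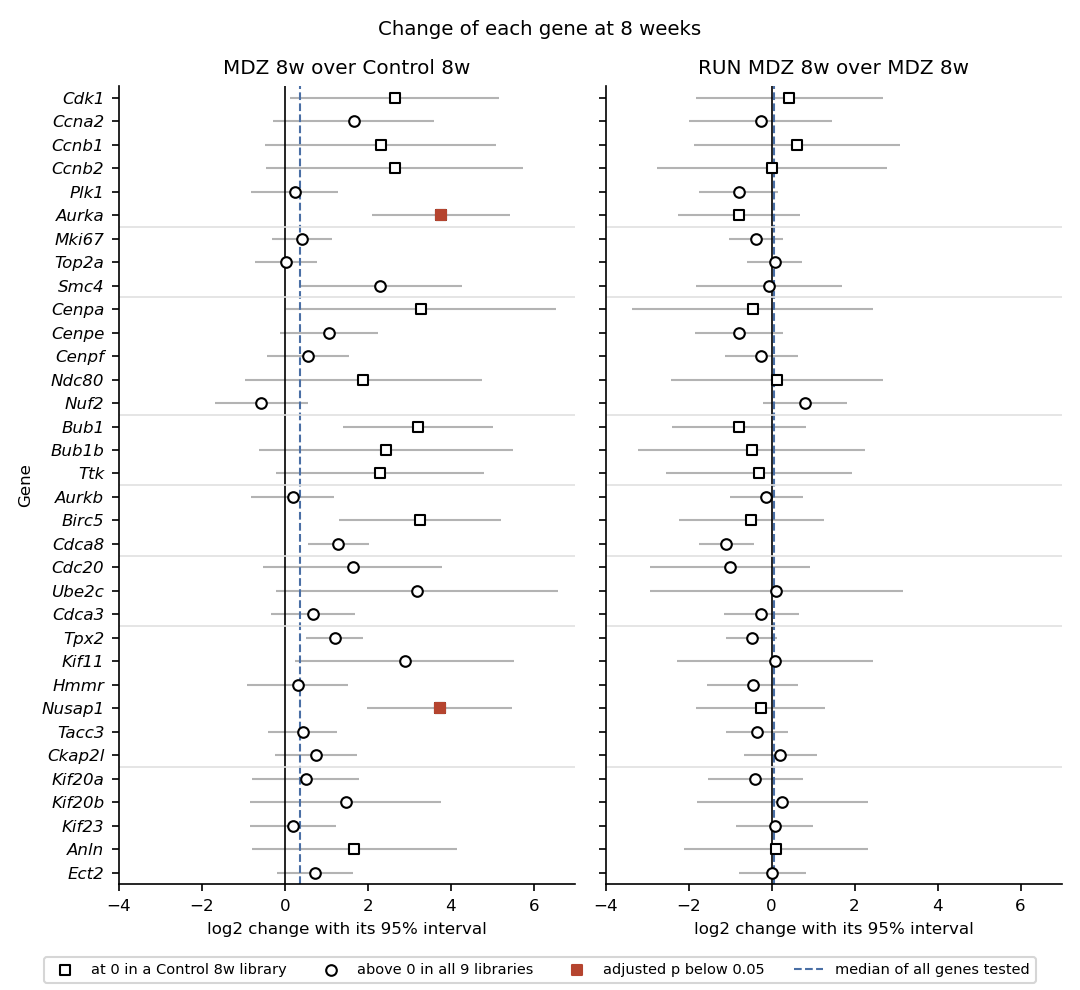
Log2 change of each of the 34 genes with its 95% interval from limma, in MDZ 8w over Control 8w (left) and RUN MDZ 8w over MDZ 8w (right). Squares are genes listed at 0 in a Control 8w library, circles genes above 0 in all 9 libraries, filled points passed at an adjusted p below 0.05, and the broken line is the median of all genes tested (0.36 and 0.05); Aurka and Nusap1 passed on the left and no gene of the 34 on the right.

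RUN MDZ 8w against MDZ 8w asked whether a running wheel changed the genes in exposed mice. None of the 34 passed, in a comparison in which 0.0524% of genes passed as higher and 0.105% as lower. The median change was -0.26, beside 0.05 for all genes tested, and 13 of the 34 were above 0, against 54% of all genes. The summed level was 1230, 1275 and 1189 TPM in RUN MDZ 8w mice, against 1020, 1829 and 1391 TPM in MDZ 8w. The running libraries lay within the range of the others.

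Cdca8 had the lowest change. It had 28.4, 28.2 and 32.5 TPM in RUN MDZ 8w mice, against 47.6, 85.0 and 65.5 TPM in MDZ 8w, and the groups did not overlap (log2 change -1.09 ± 0.28, limma adjusted p = 0.214). No other gene of the 34 had an unadjusted p below 0.05, which 3.96% of all genes reached as lower and 6.02% as higher. Plk1 had 18.3, 16.7 and 15.4 TPM in RUN MDZ 8w mice, against 21.3, 50 and 24.6 TPM in MDZ 8w (log2 change -0.79 ± 0.41, adjusted p = 0.597). Bub1 had 14.7, 7.69 and 14.3 TPM in RUN MDZ 8w mice, against 17.7, 28.8 and 18.5 TPM in MDZ 8w (log2 change -0.79 ± 0.70, adjusted p = 0.824). These 3 were the genes that lay wholly lower (8.82% of the list, against 10.5% of all genes), and none lay wholly higher (14.4% of all genes).

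Nuf2 had the highest change, with 90.7, 76.3 and 31.3 TPM in RUN MDZ 8w mice, against 33.3, 35.2 and 33.7 TPM in MDZ 8w (log2 change 0.80 ± 0.43, adjusted p = 0.626). RUN MDZ 8w replicate 3 was below all 3 MDZ 8w libraries. Mki67 had 54.0, 34.2 and 44.5 TPM in RUN MDZ 8w mice, against 43.4, 69.9 and 60.8 TPM in MDZ 8w (log2 change -0.38 ± 0.28, adjusted p = 0.791). Top2a had 84.5, 67.6 and 95 TPM in RUN MDZ 8w mice, against 59.7, 116 and 66.0 TPM in MDZ 8w (log2 change 0.08 ± 0.29, adjusted p = 0.996). For both markers the groups overlapped.

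Cdk1 had 32.2, 33.4 and 44.0 TPM in RUN MDZ 8w mice, against 16.2, 40.1 and 28.8 TPM in MDZ 8w (log2 change 0.43 ± 0.97). Ccnb1 had 41.5, 31.5 and 47.3 TPM in RUN MDZ 8w mice, against 17.8, 41.5 and 22.4 TPM in MDZ 8w (log2 change 0.61 ± 1.08). The SE of both uses one spread for all 8-week groups, Control 8w replicate 1 at 0 included. Aurka had 22.6, 7.89 and 11.6 TPM in RUN MDZ 8w mice, against 14.3, 28.2 and 29.1 TPM in MDZ 8w (log2 change -0.79 ± 0.64). Aurkb had 18.3, 23.7 and 40.1 TPM in RUN MDZ 8w mice, against 22.5, 36.1 and 28.0 TPM in MDZ 8w (log2 change -0.12 ± 0.38). All 4 sets overlapped, with adjusted p from 0.791 to 0.992. Cdc20 had 24.8, 58.0 and 24.5 TPM in RUN MDZ 8w mice, against 48.2, 85.6 and 72.3 TPM in MDZ 8w (log2 change -1.0 ± 0.83, adjusted p = 0.799). Kif11 had 35.7, 52.9 and 32.2 TPM in RUN MDZ 8w mice, against 25.6, 44.3 and 44.6 TPM in MDZ 8w (log2 change 0.08 ± 1.02, adjusted p = 1).

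No other mitosis gene and no S phase gene passed, with medians of -0.29 over 83 genes and -0.65 over 34 genes. One S phase gene of the 34 was above 0. RUN MDZ 8w held 2 libraries without Ddx3y and MDZ 8w none. With the log2 ratio of Ddx3y to Xist as a covariate the median change of the mitosis genes was -0.78, and 8 of 34 were above 0. Of 5 endothelial markers 3 passed as higher in RUN MDZ 8w (579.8 to 729.7 TPM against 197.1 to 230.4 TPM in MDZ 8w) as did 1 of 5 pericyte and smooth muscle markers (2114 to 2971 TPM against 587.3 to 1277 TPM). Oligodendrocyte markers summed to 1843 to 2959 TPM in RUN MDZ 8w mice, against 125.3 to 673.6 TPM in MDZ 8w, with none of 5 passing. The 3 intermediate progenitor markers summed to 335.2 to 383.4 TPM in RUN MDZ 8w, against 499.4 to 585.0 TPM in MDZ 8w, also with none passing. Their part in these values was not tested.

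RUN MDZ 8w against Control 8w uses the same control samples as MDZ 8w against Control 8w, so the results of these comparisons are not independent. Nusap1 and Aurka passed as higher and no gene as lower (5.88% of the list, against 9.41% of all genes as higher and 1.9% as lower). Nusap1 had 21.8, 11.7 and 37.3 TPM in RUN MDZ 8w mice, against 3.04, 0 and 0 TPM in Control 8w (log2 change 3.47 ± 0.76, adjusted p = 0.0270). Aurka had 22.6, 7.89 and 11.6 TPM in RUN MDZ 8w mice, against 0, 0.936 and 3.22 TPM in Control 8w (log2 change 2.98 ± 0.72, adjusted p = 0.0368). Neither passed in a fit of these 2 groups alone, which called 0 of 15443 genes, nor without RUN MDZ 8w replicate 1 or 3, without any 1 MDZ 8w library, with quantile normalization, with quality weights or with the sex covariate. Adjusted p over the alternatives ran from 0.0023 to 0.492 for Aurka and from 0.0020 to 0.397 for Nusap1. Of the 34, 10 lay wholly higher (23% of all genes) and Plk1 wholly lower (9.47% of all genes). The median change was 1.18, beside 0.51 for all genes tested, and 32 of 34 were above 0 (68.7% of all genes). Over the 22 genes with no 0, those with a control value near 0 included, the median was 0.29. It was 0.09 for all genes tested that were above 0 in every Control 8w library. Leaving out Control 8w replicate 1 leaves 1 control sample. The median of the 34 was then 0.44, beside 0.35 for all genes, and 24 were above 0. With quantile normalization 23 were above 0, and with the sex covariate 24. Without Control 8w replicate 1, 7 genes passed as higher (19.7% of all genes), and without replicates 2 and 3 together 14 did (27.0%).

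Mki67 had 54.0, 34.2 and 44.5 TPM in RUN MDZ 8w mice, against 43.8, 43.8 and 40.1 TPM in Control 8w (log2 change 0.02 ± 0.31, adjusted p = 0.982). Top2a had 84.5, 67.6 and 95 TPM in RUN MDZ 8w mice, against 71.9, 83.3 and 75.9 TPM in Control 8w (log2 change 0.11 ± 0.32, adjusted p = 0.846). Both overlapped. Plk1 had the lowest change, with all 3 running libraries (18.3, 16.7 and 15.4 TPM) below the Control 8w libraries (31.2, 18.5 and 22.1 TPM; log2 change -0.56 ± 0.46, adjusted p = 0.442). The changes of the other genes named throughout were 3.08 for Cdk1, 2.92 for Ccnb1, 2.97 for Kif11, 0.63 for Cdc20 and 0.06 for Aurkb, with none passing. Of the other mitosis genes 12 passed as higher (14.5% of the list, against 9.41% of all genes) and 2 as lower. Here too 8 of the 12 were at 0 in every Control 8w library. Cdc25c, Cenpq and Sgol1 had at most 0.953, 0.102 and 0.0409 TPM there. All of these passed the filter through the other groups alone. Prc1, with 14.4 to 20.1 TPM in Control 8w, was the exception. The lower ones were Spc24, a subunit of the Ndc80 complex (10.1 to 22.7 TPM in RUN MDZ 8w mice, against 59.9 to 72.7 TPM in Control 8w, adjusted p = 0.0210) and Mad1l1, a checkpoint scaffold (22.3 to 24.7 TPM against 55.7 to 60.1 TPM, adjusted p = 0.0267). Of the S phase genes Tk1 passed as higher, but it was at 0 in every Control 8w library and passed the filter in the same way. Prim1, the catalytic subunit of primase, passed as lower (50.9 to 63.4 TPM in RUN MDZ 8w mice, against 78.9 to 131.5 TPM in Control 8w, adjusted p = 0.0464).

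Many cell type markers also differed between RUN MDZ 8w and Control 8w. All 5 oligodendrocyte markers passed as higher (1843 to 2959 TPM in RUN MDZ 8w summed, against 167.4 to 234.5 TPM in Control 8w), as did 3 of 5 endothelial markers, 2 of 7 stem cell markers and 1 of 5 pericyte and smooth muscle markers. Of 6 neuroblast markers 3 passed as lower (2487 to 2704 TPM in RUN MDZ 8w summed, against 3991 to 4010 TPM in Control 8w), as did 1 of 3 intermediate progenitor markers (335.2 to 383.4 TPM against 518.6 to 932.6 TPM). One oligodendrocyte marker was at 0 in all Control 8w libraries. The part of these markers in the changes of the mitosis genes was not tested.

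In culture the comparison asked what added Egr1, an immediate early zinc finger factor, did to dividing stem cells. Most of the mitosis genes passed as lower at the deposited scale. Of the 34, 24 passed as lower in Egr1 culture and none as higher (70.6% of the list, against 29% of all 12402 genes tested as lower and 15.2% as higher). In 27 genes every Egr1 culture library lay below every Control culture library (79.4%, against 37.1% of all genes), and none lay wholly higher (18.4% of all genes). The falls were modest, from -0.51 to -0.19 on the log2 scale among the 24. The median over the 34 was -0.28, beside -0.10 for all genes tested, and 2 of 34 were above 0, against 37.4% of all genes. The summed level was 2616, 2832 and 2454 TPM in Egr1 culture, against 3001, 3246 and 3305 TPM in Control culture.

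Part of this fall was shared by the whole table, and the count depended on the scaling. TPM values sum to a fixed total, and Egr1 culture had more calls below 0 than above it (34.4% of all calls were higher). With median-of-ratios scaling the median of all genes rose by about 0.10 to 0.0053 and 50.5% of calls were higher. Then 8 of the 34 passed as lower (21.9% of all genes) with a median of -0.17. These 8 were Anln, Aurkb, Birc5, Cenpf, Ect2, Plk1, Top2a and Ube2c. With quantile normalization 17 passed as lower (26% of all genes). Leaving out 1 library gave 9 genes to 24. The lowest count was without Control culture replicate 3 (21.3% of all genes). There were 12 or 13 without Egr1 culture replicate 1, Egr1 culture replicate 3 or Control culture replicate 2. With median-of-ratios scaling or without Control culture replicate 3, the share of calls was therefore near the background. The median change of the 34 still lay below that of all genes (-0.17 against 0.0053, and -0.23 against -0.077). Across all 14 alternatives, Plk1, Top2a, Birc5, Ube2c, Anln and Ect2 passed each time, and 31 of the 34 were below 0 each time. The exceptions were Hmmr, Kif20a and Kif23.

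Chromosome structure and proliferation genes held the largest fall. Top2a had 163, 170 and 136 TPM in Egr1 culture, against 201, 223 and 242 TPM in Control culture, with no overlap (log2 change -0.51 ± 0.10, limma adjusted p = 0.0030). Mki67 had 67.2, 65.7 and 46.6 TPM in Egr1 culture, against 71.9, 78.2 and 88.1 TPM in Control culture, again with no overlap (log2 change -0.42 ± 0.14, adjusted p = 0.0364). Mki67 did not pass without Control culture replicate 3 (adjusted p = 0.119). Smc4 had 75.6 to 87.9 TPM in Egr1 culture, against 78.0 to 102 TPM in Control culture, and did not pass (adjusted p = 0.291).

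Of the 6 entry kinases and cyclins 5 passed as lower. Cdk1 had 141, 158 and 157 TPM in Egr1 culture, against 163, 186 and 180 TPM in Control culture (log2 change -0.21 ± 0.07, adjusted p = 0.0374). Ccna2, the cyclin of S phase and G2, had 148, 163 and 136 TPM in Egr1 culture, against 168, 182 and 195 TPM in Control culture (log2 change -0.29 ± 0.08, adjusted p = 0.0205). Ccnb1 had 81.4, 83.7 and 80.9 TPM in Egr1 culture, against 89.0, 97.4 and 94.6 TPM in Control culture (log2 change -0.19 ± 0.06, adjusted p = 0.0303). In all 3 the groups were apart, by small margins. Plk1 had 90.8, 95.9 and 83.7 TPM in Egr1 culture, against 110, 108 and 111 TPM in Control culture (log2 change -0.28 ± 0.06, adjusted p = 0.0076). Aurka had 66.0, 73.0 and 65.7 TPM in Egr1 culture, against 80.5, 83.5 and 80.2 TPM in Control culture (log2 change -0.25 ± 0.06, adjusted p = 0.0128). The sixth, Ccnb2, overlapped (56.8 to 67.6 TPM in Egr1 culture, against 63.9 to 70.8 TPM in Control culture, adjusted p = 0.232).

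Kinetochore genes passed in 4 of 5 cases. Cenpf, a large protein of the outer kinetochore, had 15.7, 15.3 and 11.8 TPM in Egr1 culture, against 17.7, 19.9 and 21.5 TPM in Control culture (log2 change -0.44 ± 0.12, adjusted p = 0.0174). Cenpa had 128, 143 and 131 TPM in Egr1 culture, against 153, 158 and 150 TPM in Control culture (log2 change -0.20 ± 0.06, adjusted p = 0.0302). Nuf2 had 61.5, 64.8 and 59.1 TPM in Egr1 culture, against 67.1, 84.5 and 82.5 TPM in Control culture (log2 change -0.32 ± 0.09, adjusted p = 0.0204). These 3 had no overlap. Ndc80 had 31.8, 37.7 and 34.3 TPM in Egr1 culture, against 36.8, 44.7 and 47.3 TPM in Control culture, where 1 library of each group crossed (log2 change -0.30 ± 0.11, adjusted p = 0.0471). Cenpe did not pass, although its groups were apart (13.8 to 18.4 TPM against 18.9 to 24.4 TPM, adjusted p = 0.0838).

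All 3 checkpoint genes passed. Bub1 had 32.9, 35.4 and 34 TPM in Egr1 culture, against 37.8, 42.7 and 44.5 TPM in Control culture (log2 change -0.28 ± 0.08, adjusted p = 0.0192). Bub1b, which encodes the checkpoint protein BubR1, had 61.3, 62.8 and 55.6 TPM in Egr1 culture, against 66.5, 71.2 and 74.0 TPM in Control culture (log2 change -0.23 ± 0.07, adjusted p = 0.0284). Ttk, the Mps1 kinase that starts checkpoint signalling, had 32.9, 34.2 and 28.3 TPM in Egr1 culture, against 35.9, 39.7 and 40.3 TPM in Control culture (log2 change -0.28 ± 0.09, adjusted p = 0.0343). All of them had groups without overlap, and none of them passed with median-of-ratios scaling.

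The passenger complex also passed in full. Birc5 had the smallest adjusted p of the list, with 140, 150 and 143 TPM in Egr1 culture, against 178, 197 and 186 TPM in Control culture (log2 change -0.37 ± 0.06, adjusted p = 0.0012). Aurkb had 58.2, 63.7 and 48.1 TPM in Egr1 culture, against 72.6, 69.3 and 74.7 TPM in Control culture (log2 change -0.35 ± 0.10, adjusted p = 0.0189). Cdca8 had 114, 126 and 107 TPM in Egr1 culture, against 138, 137 and 140 TPM in Control culture (log2 change -0.26 ± 0.07, adjusted p = 0.0148). None of the 3 had overlapping groups.

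Of the genes for protein destruction in mitosis 2 of 3 passed. Ube2c, the ubiquitin-conjugating enzyme of the anaphase promoting complex, was the most abundant of the 34 in culture, with 225, 245 and 219 TPM in Egr1 culture, against 282, 301 and 300 TPM in Control culture (log2 change -0.36 ± 0.06, adjusted p = 0.0017). Cdca3, a trigger of mitotic entry that works through ubiquitin ligase, had 62.8, 81.6 and 63.5 TPM in Egr1 culture, against 88.2, 94.5 and 85.8 TPM in Control culture (log2 change -0.37 ± 0.10, adjusted p = 0.0168). Cdc20 did not pass, with 136, 149 and 131 TPM in Egr1 culture, against 154, 162 and 152 TPM in Control culture (log2 change -0.17 ± 0.07, adjusted p = 0.0634). Its groups did not overlap either.

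Spindle genes were divided, with 3 of 6 passing. Ckap2l, which encodes a protein of spindle poles, had 51.0, 55.1 and 43.6 TPM in Egr1 culture, against 55.3, 66.6 and 69.6 TPM in Control culture (log2 change -0.35 ± 0.11, adjusted p = 0.0306). Tpx2 had 85.6, 92.9 and 75.6 TPM in Egr1 culture, against 93.4, 104 and 109 TPM in Control culture (log2 change -0.27 ± 0.09, adjusted p = 0.0366). Tacc3, which strengthens kinetochore fibres, had 79.7, 87.6 and 71.5 TPM in Egr1 culture, against 90.4, 92.1 and 96.4 TPM in Control culture (log2 change -0.23 ± 0.08, adjusted p = 0.0469). The lowest control library lay just above the highest Egr1 culture library in each of these. Kif11 had 46.0, 48.8 and 38.1 TPM in Egr1 culture, against 49.1, 52.2 and 60.6 TPM in Control culture and did not pass (log2 change -0.28 ± 0.11, adjusted p = 0.0662). Hmmr and Nusap1, both microtubule-binding, had changes of -0.03 and -0.12 with overlapping groups.

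Cytokinesis genes differed most among themselves. Anln, the anillin scaffold of the contractile ring, had 28.5, 31.3 and 25.7 TPM in Egr1 culture, against 37.5, 40.9 and 42.7 TPM in Control culture (log2 change -0.49 ± 0.09, adjusted p = 0.0024). Ect2, the exchange factor that activates RhoA at the ring, had 36.8, 36.1 and 34 TPM in Egr1 culture, against 42.1, 47.4 and 48.0 TPM in Control culture (log2 change -0.35 ± 0.08, adjusted p = 0.0057). Both passed in every alternative. The 3 kinesins of cytokinesis did not pass. Kif23, the motor of centralspindlin, had the highest change of the list, with 49.0, 51.1 and 42.4 TPM in Egr1 culture, against 44.7, 44.5 and 50.1 TPM in Control culture (log2 change 0.03 ± 0.09, adjusted p = 0.815). Kif20a, whose product brings Plk1 and Aurora B to the central spindle, had 75.3 to 92.7 TPM in Egr1 culture, against 79.9 to 87.2 TPM in Control culture (log2 change 0.0064, adjusted p = 0.960). Kif20b had 10.8 to 14.1 TPM in Egr1 culture, against 14.6 to 18.2 TPM in Control culture (log2 change -0.32 ± 0.13, adjusted p = 0.0655).

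Other genes of the cell cycle were counted beside the 29% of all genes that passed as lower. Of 83 other mitosis genes 53 passed as lower (63.9%) and 2 as higher, with a median of -0.30. Cenpt, a kinetochore subunit that binds DNA, had 28.7 to 31.9 TPM in Egr1 culture, against 42.7 to 45.8 TPM in Control culture (log2 change -0.57 ± 0.07, adjusted p = 3.5e-04). Gtse1 had 42.7 to 45.6 TPM in Egr1 culture, against 60.6 to 64.3 TPM in Control culture (log2 change -0.48 ± 0.06, adjusted p = 4.1e-04). Ncaph, a condensin subunit, had 86.1 to 106.4 TPM in Egr1 culture, against 133.9 to 144.8 TPM in Control culture (log2 change -0.51 ± 0.08, adjusted p = 0.0014). The 2 that rose were Ensa and Zwint. Among regulators of the promoter elements shown above, named here after their values were seen, Foxm1 (log2 change -0.40), Mybl2, which encodes B-Myb (-0.36), and the MuvB subunits Lin9 (-0.44) and Lin52 (-0.51) passed as lower. The MuvB subunits Lin54, which binds the CHR, and Lin37 did not pass, with log2 changes of 0.30 (adjusted p = 0.0852) and 0.18 (adjusted p = 0.226). Of 34 S phase genes 20 passed as lower (58.8%) and 1, E2f1, as higher, with a median of -0.25. E2f1, a factor that activates S phase genes, had 35.4 to 40.1 TPM in Egr1 culture, against 25.6 to 30.6 TPM in Control culture (log2 change 0.44 ± 0.09, adjusted p = 0.0037). Tk1 and Chaf1a had changes of -0.35 and -0.35.

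Markers of other cell types differed between the cultures. Of the 7 stem cell markers 3 passed as higher and 3 as lower, and their sum was 4966 to 5209 TPM in Egr1 culture, against 5619 to 6074 TPM in Control culture. Neuroblast markers summed to 170.7 to 208.3 TPM in Egr1 culture, against 36.2 to 43.4 TPM in Control culture. This came mostly from Calb2 (132.2 to 162.8 TPM against 0.894 to 1.35 TPM), while Dcx was at most 0.123 TPM in Egr1 culture and at 0 in Control culture. Of the 6 neuroblast markers 4 were tested and 2 passed as higher, and all 4 mature neuron markers tested passed as higher (sum of 5 markers 21.6 to 26.2 TPM against 5.80 to 7.33 TPM). Oligodendrocyte precursor markers summed to 793.6 to 920.8 TPM in Egr1 culture, against 1571 to 1664 TPM in Control culture, with 3 of 4 tested passing as lower and 1 as higher. The 3 intermediate progenitor markers summed to 14.6 to 16.0 TPM in Egr1 culture, against 21.4 to 21.9 TPM in Control culture. Only 1 of them was tested, and it passed as lower. The part of these markers in the change of the mitosis genes was not tested.

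Outside the 34, the genes whose profile over libraries lay nearest to the mean profile of the 34 differed between the tables. Rad21 and Prc1 are also on the list of other mitosis genes. At P10 they were Msh6, Rad21 and Prc1 (Pearson r 0.995, 0.991 and 0.991 over 6 libraries). In culture they were Kpna2, Gng12 and Prr11 (r 0.998, 0.997 and 0.996 over 6 libraries). At 8 weeks they were Rgp1, Cct5 and Zfand5 (r 0.976, 0.974 and 0.967 over 9 libraries). These are descriptions: the libraries of a table share their groups, and the highest of many genes are shown.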

How the data were processed

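Per the labels, RNA was sequenced from 15 libraries of sorted cells and 6 of cultured cells, and 10 chromatin samples of 31 in all were not analysed here. The authors deposited FPKM values for the P10 libraries, and TPM values for the 8-week and culture libraries. These units were read from the values, since no label states them. The submitters' processing notes name TopHat, Bowtie2 and DESeq2 without versions or roles, and build mm10. No read counts were used, so count tests were not run.

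Genes with a mean of at least 1 were tested on log2(value + 1) with limma 3.58.1 (trend, R 4.3.3), with Benjamini-Hochberg adjustment over all genes and a threshold of 0.05. Fold changes are on that scale, which understates those of low genes. The 3 groups at 8 weeks shared one fit. Control 8w replicates 2 and 3 were averaged. Python 3.11.15, pandas 2.3.3 and matplotlib 3.10.9 made the summaries and figures. The fit was tested on simulated data with 100 genes changed by 1 and 100 by 2 on the log2 scale. It recovered 97 and 98 of these at P10, and 95 and 99 in culture. For MDZ 8w against Control 8w it recovered 1 and 17.

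All 34 genes were counted. Values were given for those that passed, for Mki67, Top2a, Cdk1, Ccnb1, Aurka, Aurkb, Plk1, Cdc20 and Kif11, for the highest and lowest change in each comparison, and for at most 3 passing genes of each other list. Cenpa, Ndc80, Smc4, Bub1, Birc5, Cdca8, Tpx2 and the genes named as not passing were added after their values were seen. The members and lists were chosen with earlier results of these data known. Alternatives were pseudocounts of 0.1 and 5, no filter, a mean of at least 5, median-of-ratios scaling, quantile normalization, quality weights, a replicate block, the controls kept apart, 2 groups alone, and each library left out. A sex covariate and leaving out Control 8w replicates 2 and 3 together were added after seeing the data.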

Additional observations from a re-analysis of the deposited data

How the results depend on the processing

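In culture the direction of the result held while its count did not. Median-of-ratios scaling left 8 of the 34 genes lower, with a median of -0.17, and leaving out 1 library left 9 to 24. At 8 and at 9 genes the share of the 34 called was near that of all genes (21.9% and 21.3%). At P10 the number of all genes called was 2 with a pseudocount of 5, 4 with a mean of at least 5 or quantile normalization, 5 with quality weights, 0 with median-of-ratios scaling, the replicate block or the sex covariate, and 0 to 101 with 1 library left out. None of the 34 passed in any of these.

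For MDZ 8w against Control 8w, genes called and members called were 1410 and 4 with a pseudocount of 0.1, 261 and 0 with quantile normalization (median 1.07), 19 and 0 with quality weights, 1787 and 6 with the controls kept apart (median 1.19), and 4995 and 16 without Control 8w replicates 2 and 3 together (median 0.93). A pseudocount of 5 gave 461 genes and a median of 1.01. Members called were 1 with only the 2 groups compared (7.52% of all genes passed as higher) and 1 with the sex covariate (3.27%). With 1 library left out, 207 to 2928 genes and 0 to 11 members were called, with medians of 0.55 to 1.72.

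For RUN MDZ 8w against MDZ 8w, 432 genes were called with quality weights, 122 with the controls kept apart, 360 with only the 2 groups compared, 0 with the sex covariate (median -0.78) and 0 to 275 with 1 library left out. For RUN MDZ 8w against Control 8w, genes and members were 649 and 0 with quantile normalization (median 0.55), 0 and 0 with quality weights or only the 2 groups compared, 5649 and 14 without Control 8w replicates 2 and 3 together (median 0.65), and 163 and 0 with the sex covariate (median 0.95). Members were 1 with a pseudocount of 0.1 (11.3% of all genes passed as higher), a pseudocount of 5 (6.81%, median 0.82) or no filter (6.70%). With the controls kept apart 2904 genes were called. With 1 library left out, 910 to 3952 genes and 0 to 7 members were called, with medians of 0.44 to 1.22.

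Samples were not treated as paired by replicate number in the main fits. Same-numbered libraries correlated weakly, from -0.077 to 0.13. For MDZ 8w with Control 8w each library still correlated best with its own number (0.058, 0.048 and 0.0081). In every other comparison some libraries correlated best with another number, so pairing was not settled. With the replicate block, 1227 genes and 3 members passed for MDZ 8w against Control 8w (median 1.19), 14 genes for RUN MDZ 8w against MDZ 8w, 2595 genes and 2 members for RUN MDZ 8w against Control 8w, and 4646 genes and 19 members in culture.

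Signs turned among genes that did not pass. At P10, Aurka was -0.013, -0.015 and -0.058 with median-of-ratios scaling, quantile normalization and quality weights, and with 1 library left out the ranges were -0.10 to 0.078 for Top2a, -0.098 to 0.11 for Aurka, -0.018 to 0.16 for Plk1 and -0.14 to 0.046 for Kif11. For MDZ 8w against Control 8w, Top2a was -0.0022 with median-of-ratios scaling and -0.044 with quality weights, Aurkb -0.094 and Plk1 -0.031 with quantile normalization, and Plk1 -0.067 and Cdc20 -0.14 without Control 8w replicates 2 and 3 together. With 1 library left out, ranges were -0.27 to 0.21 for Top2a, -0.12 to 2.56 for Ccnb1, -0.0070 to 0.35 for Aurkb and -0.13 to 0.53 for Plk1. In RUN MDZ 8w over MDZ 8w, a sex covariate gave -0.37 for Top2a, -0.96 for Cdk1, -0.98 for Ccnb1, 0.45 for Cdc20 and -0.74 for Kif11, and leaving out 1 library gave -0.10 to 0.37 for Top2a, -0.43 to 0.12 for Aurkb and -0.17 to 0.22 for Kif11. For RUN MDZ 8w against Control 8w, Mki67 was -0.038 with median-of-ratios scaling, -0.12 with quantile normalization, -0.0090 without Control 8w replicates 2 and 3 together and -0.44 with the sex covariate. Aurkb was -0.36 with quantile normalization and -0.22 with the sex covariate, Cdc20 was -1.15 without Control 8w replicates 2 and 3 together, and Top2a was -0.24 with the sex covariate. Leaving out 1 library gave -0.13 to 0.19 for Mki67, -0.0014 to 0.24 for Top2a and -0.24 to 0.30 for Aurkb. In culture Kif23 ranged from -0.025 to 0.11. The cause was not tested. Depth is unknown at 8 weeks and in culture, and Control 8w had 2 samples, so changes against it, large ones included, could be missed.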
